A study of Gasterosteus aculeatus with 12 samples.

Results

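The 12 whole embryos of this stickleback cross were divided by how many sites on chromosome XIX carried both alleles in their RNA, and the resulting sets were compared over the rest of the genome. The embryos were F1 offspring of LITC, an anadromous low-spine population, and a high-spine stock descended from the Boulton Lake by Bodega Bay mapping cross. The paper describes an LITC female and a high-spine male as parents of the clutch raised for spine and fin samples. It states that the embryos came from a different cross. All 12 came from the same cross and condition. They were made by in vitro fertilization, kept in 10% seawater at 16 °C without treatment and frozen whole at 72 h post fertilization, at stage 19/20. The high-spine stock was bred in the laboratory for spine number and descends from few founders, so the embryos stand for a single family rather than for the populations. GEO's labels give no sex, and the sets are called high-XIX and low-XIX embryos here. They are putative sexes and were not checked against a genetic sex test.

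In the three-spine stickleback, chromosome XIX is the sex chromosome pair. Females have paired X chromosomes, and males have an X and a Y that exchange sequence in a small pseudoautosomal part at one end. Elsewhere the Y has gathered base changes and lost genes. It also carries AMHY, a duplicate of the autosomal gene for anti-Müllerian hormone. The contigs listed in the files were the numbered chromosomes, Un, P and M, with no contig named Y.

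The sets were selected on measured values. Sites were used that were listed in all 12 embryos with more than 12 reads in each, and an embryo was taken as heterozygous at a site where the less common allele had more than 10% of its reads. Embryos with more than 4500 heterozygous sites on XIX formed the high-XIX set, which held 6 of the 12 embryos (replicates 2, 4, 5, 6, 7 and 11). The other 6 formed the low-XIX set (replicates 1, 3, 8, 9, 10 and 12). The count was 7023 in the lowest embryo of the high-XIX set and 1922 in the highest of the low-XIX set. No embryo lay near the limit. Since XIX chose the sets, everything on XIX is given below as description, with no test.

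Reads counted per embryo ranged from 16302333 to 27003127, which is the sum over sites and counts a read once at each site it spans. The embryos together listed 540774 sites, of which 321670 were in every embryo's file and 116469 had more than 12 reads in each embryo. Of the last, 10197 were on XIX, 2350 on Un and 103922 elsewhere. No difference between the sets was detected in reads counted (two-sided exact permutation test, p = 0.931) or in sites listed (exact permutation test, p = 0.275). They differed in the share of raw reads of low mapping quality outside XIX and Un, which was 7.47% ± 0.37 (SD, n = 6) in the high-XIX and 6.65% ± 0.35 in the low-XIX set (exact permutation test, p = 0.00866). That measure was chosen after its values had been seen. The labels give no batch, and the files pair no position with a gene, so the embryos could not be checked against tissue markers.

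On XIX the high-XIX embryos had between 7023 and 7124 heterozygous sites and the low-XIX embryos between 1877 and 1922. The excess was not spread evenly along the chromosome. In the first 3 Mb a median of 56.7% of sites was heterozygous in the high-XIX and 53.1% in the low-XIX embryos. Within the first 1 Mb the medians were both 61.8%, and no SNV there followed the sets. From 3 to 12 Mb the medians were 80.0% and 12.3%, and from 12 Mb to the end they were 57.2% and 18.6%. Between 19 and 20 Mb the order was the other way, with 10.7% in the high-XIX and 54.5% in the low-XIX embryos.

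A SNV is said to follow the sets when it was heterozygous in every embryo of one set and in none of the other. On XIX, 5736 SNVs were heterozygous in every high-XIX and no low-XIX embryo, 64.8% of the 8851 that varied among embryos. They lay between 2258320 and 19615410 on the gasAcu1-4 build. At 5690 of them (99.2%) the low-XIX embryos carried the reference base. The median alternate share of a high-XIX embryo at these SNVs was between 41.6% and 43.5%, below equal shares. The opposite pattern was found at 777 SNVs, with median alternate shares of 48.4% to 49.1% in the low-XIX embryos.

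The deepest of the first kind was chrXIX:16712789, where the alternate base made up between 49.0% and 50.3% of reads in the high-XIX embryos, with a median of 49.7%, and 2 of 66175 reads in the low-XIX embryos. The other 4 of the 5 deepest were 16712711, 16713593, 17877007 and 17877827, with medians of 44.4% to 51.2% in the high-XIX embryos. The deepest of the second kind was 17876938, with a median of 50.4% in the low-XIX embryos against 13 of 43207 reads in the high-XIX embryos. It was followed by 17876486, 17875560, 17877912 and 11628630. SNVs of either kind therefore lay within the same short stretch near 17876938.

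Reads also differed in amount on XIX. The chromosome held 7.42% to 7.72% of counted reads in the high-XIX embryos and 8.82% to 9.28% in the low-XIX embryos, and the sets did not overlap. In 10 kb windows, the median log2 difference (high-XIX minus low-XIX, scaled by library) was -0.09 over 89 windows of the first 3 Mb, -0.18 over 248 windows from 3 to 12 Mb and -0.78 over 252 windows from 12 Mb to the end. In the last of these parts, 241 windows were lower in the high-XIX embryos.

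**Figure D1:**
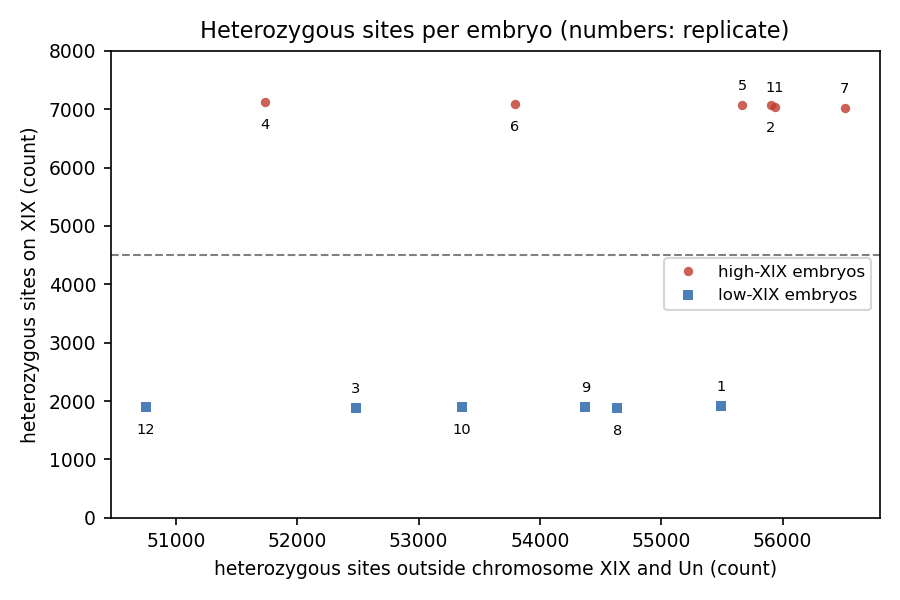
Heterozygous sites per embryo on chromosome XIX (y axis, count) against those outside XIX and Un (x axis, count, not starting at 0), with 6 high-XIX embryos as circles, 6 low-XIX embryos as squares, replicate numbers beside the points and the limit of 4500 as a dashed line. On the y axis the sets sit at 7023 to 7124 and at 1877 to 1922, while on the x axis their ranges overlap.

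Outside XIX and Un the numbers of heterozygous sites overlapped between the sets. The high-XIX embryos had 54924 ± 1819 heterozygous sites (SD, n = 6) and the low-XIX embryos 53515 ± 1712, with no difference in means detected (two-sided exact permutation test, p = 0.197). The high-XIX values ran from 51732 through a median of 55786 to 56513, and the low-XIX values from 50748 through 53867 to 55490. The sets overlapped over most of this range, as the plot of heterozygous sites per embryo shows. Leaving out replicate 4, the high-XIX embryo with the fewest, gave a difference of 2048 sites (exact permutation test, p = 0.0433). Leaving out any other single embryo gave 856 to 1804 sites, with no difference detected (exact permutation test, p = 0.123 to 0.392). The smallest of these was without replicate 12, the low-XIX embryo with the fewest.

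The same was done for each of the 20 chromosomes other than XIX. No chromosome separated the sets without overlap, and none passed after adjustment. The smallest p was that of chromosome XX, with 2377 ± 23 heterozygous sites in the high-XIX (SD, n = 6) and 2341 ± 18 in the low-XIX embryos (exact permutation test, p = 0.0152; adjusted p = 0.303 over 20 chromosomes by Benjamini-Hochberg). The smallest p that 6 embryos against 6 allow is 0.00216. Embryos differed most in chromosome VII, where the highest count was 1.89 times the lowest, and both sets ranged widely there, from 3230 to 6044 in the high-XIX and from 3206 to 6033 in the low-XIX embryos. Counts on VII were either 3206 to 3281 or 5825 to 6044, and both levels occurred in each set. On XII the high-XIX embryos had a median of 3355 sites and the low-XIX embryos 2504, with overlapping ranges (exact permutation test, p = 0.0671). Counts on XII were either 2478 to 2529 or 3346 to 3418, with none between. Replicate 4 was the only high-XIX embryo at the lower level, and replicate 10 the only low-XIX embryo at the upper level. The medians thus do not describe a graded difference.

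Read amounts outside XIX and Un were then compared in 10 kb windows, to ask which parts of the remaining chromosomes gave more or less RNA signal in one set. Of 12622 windows tested with edgeR's quasi-likelihood test, 22 (0.174%) differed at an adjusted p below 0.05, and all 22 were higher in the high-XIX embryos. None was lower at that threshold by edgeR, while at an unadjusted p below 0.05 there were 695 higher and 666 lower windows, and DESeq2 called 47 higher and 21 lower. With single embryos left out, edgeR called at most 4 lower windows, which was without replicate 5. Over all windows tested the median log2 difference was 0.00, with 10% of windows below -0.22 and 10% above 0.27. The 22 windows had log2 differences of 0.88 to 2.25, with a median of 1.53. They lay on 14 chromosomes, and 5 adjoining pairs reduce them to 17 separate places. In 19 of the 22, the lowest high-XIX embryo was above the highest low-XIX embryo. These windows were chosen for differing, so such separation is partly set by the choice. The share without overlap among all windows tested was not counted. RNA of whole embryos was measured, so more cells of a kind and more RNA per cell cannot be told apart here. Whether all reads placed in these windows came from them was not tested.

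Windows near the called ones were also summarized. In windows within 100 kb on either side, leaving out called ones, the median log2 difference had a median of -0.01 over the 21 called windows that had such neighbours, and ranged from -0.18 to 1.0. The highest of these was beside chrXI:5170001-5180000, which had a single tested neighbour. Leaving out called neighbours, adjoining ones included, makes small medians more likely, and several medians rest on few windows. How far each difference extends was therefore not tested. The files give no gene for any window, and whether a window holds exons, introns or untranslated regions is not known from them.

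**Figure D2:**
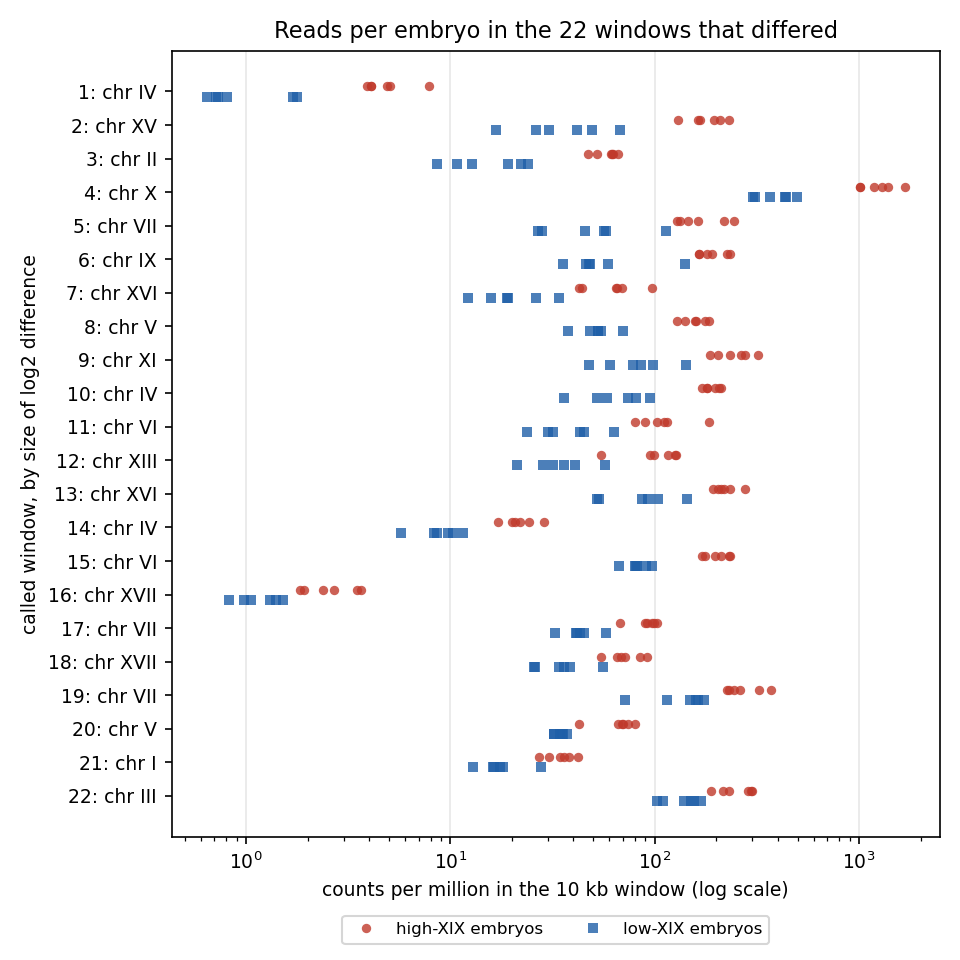
CPM, library-scaled counts after TMM scaling (x axis, log scale) in each of the 22 windows outside XIX and Un that differed between the sets, with 1 row per window named by rank of log2 difference and chromosome, circles for the 6 high-XIX and squares for the 6 low-XIX embryos. The circles lie further to the right on average in every row, and all of them lie to the right of all squares in 19 of the 22. The windows were chosen for differing, so this separation is partly set by the choice.

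The window with the highest signal was chrX:14780001-14790000, summed over 104 sites. It had 1012 CPM (library-scaled counts, after TMM scaling) in the lowest high-XIX embryo, 1238 at the median and 1676 in the highest, against 304, 400 and 495 in the low-XIX embryos. The sets were well apart. The log2 difference was 1.69 (SE 0.15, adjusted p = 2.3e-05, edgeR), and it stayed between 1.59 and 1.77 when any single embryo was left out.

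At chrXV:7000001-7010000 the high-XIX embryos had 130 to 231 CPM with a median of 181, and the low-XIX embryos 16.7 to 67.7 with a median of 36.1. This was a log2 difference of 2.24 (SE 0.26, adjusted p = 0.000537, edgeR). At chrII:6490001-6500000 the values were 47.2 to 66.1 with a median of 61.6, against 8.62 to 23.9 with a median of 16.0, a log2 difference of 1.85 (SE 0.21, adjusted p = 0.000537). In both windows every high-XIX embryo was above every low-XIX embryo.

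The numerically largest difference, 2.25 on the log2 scale (SE 0.27, adjusted p = 0.000625, edgeR), was at chrIV:4010001-4020000. It rests on a single site with 3.93 to 7.84 CPM in the high-XIX and 0.641 to 1.78 in the low-XIX embryos. Its neighbour chrIV:4000001-4010000 rests on 16 sites, with 171 to 210 CPM, median 189, against 35.9 to 94.4, median 66.1 (log2 difference 1.53, SE 0.18, adjusted p = 0.000537). Both windows had the same direction without overlap.

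Chromosome V held a window of small spread at 14710001-14720000, with 129 to 185 CPM in the high-XIX embryos, median 158, and 37.6 to 69.8, median 52.7, in the low-XIX embryos (log2 difference 1.59, SE 0.13, adjusted p = 1.1e-05, edgeR). Windows chrXVI:4370001-4380000 and chrXI:5170001-5180000 differed by 1.60 (SE 0.24, adjusted p = 0.00527) and 1.54 (SE 0.21, adjusted p = 0.00274). The sets were apart at each of these 3 windows.

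The remaining windows among the 10 largest lay nearer the threshold. At chrIX:10180001-10190000 the log2 difference was 1.62 (SE 0.27, adjusted p = 0.0131, edgeR), with 164 to 233 CPM in the high-XIX embryos. The low-XIX embryos had 35.8 to 141, the last in replicate 1, and a median of 48.1. The call was lost without replicate 12 (log2 difference 1.55, adjusted p = 0.0676), while the log2 difference stayed between 1.5 and 2.02 with any single embryo left out. At chrVII:21680001-21690000 the log2 difference was 1.66 (SE 0.30, adjusted p = 0.0297), with 129 to 245 CPM against 26.7 to 113. Its call was lost without replicate 2, 3, 7, 8, 9, 10, 11 or 12 (adjusted p of 0.0531 to 0.0811) and was made without any of the other 4, with log2 differences of 1.52 to 2.0 throughout. Of all 22 windows, 6 lost their call when some single embryo was left out.

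Reads of low mapping quality had been set aside by the authors' counter. When sites with more than 10% of such reads were left out, an alternative chosen after seeing the data, 8 windows were called, all higher in the high-XIX embryos. Of the original 22 windows, 7 were among them, 7 had no site left to test and 8 lost the call, with log2 differences of -0.35 to 1.61. Among the 10 named above, those on XV, V and IX and both on IV had no site left. The named window on XVI lost the call. Of the 15 that could be tested, 14 were still higher in the high-XIX embryos. The named windows on X (log2 difference 1.77), II, XI and VII were among those called. With reference reads alone, also chosen later, 14 of the 22 were called, and all 22 were still higher in the high-XIX embryos. That setting called 16 windows in all, and the 2 outside the 22 were lower in the high-XIX embryos. The low mapping quality share was itself higher in the high-XIX set, as given above, and its part in these results was not tested.

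Genotypes outside XIX and Un were searched for SNVs that followed the sets. Of 68863 SNVs that varied among embryos there, 114 (0.166%) were heterozygous in every high-XIX and in no low-XIX embryo, and 5 (0.00726%) were the other way. A single SNV with this pattern has a Fisher's exact p of 0.00216, the smallest that 6 embryos against 6 allow, so the SNVs are given as counts and not as single calls. SNVs close together share haplotypes and reads and are not independent. The 119 SNVs were therefore gathered into runs of called SNVs less than 1 Mb apart, which gave 22 runs on 16 chromosomes. The median length was 858 bases among the 17 that held more than 1 SNV, and the longest, on XII, spanned 938744 bases. That run held 4 called SNVs, at 827612 to 827650 and at 1766310 to 1766355, of 270 SNVs inside it that varied. Counted in 10 kb windows, 24 held SNVs of the first kind and 5 of the other, of 11142 with SNVs that varied. The imbalance was thus smaller by place than by SNV.

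In 20 of the runs at least 1 SNV was heterozygous in the high-XIX set only. The allele that the low-XIX embryos carried is called shared here, and the other one second. Reads of both alleles were summed over the SNVs of a run and scaled to the mean total over embryos outside XIX and Un. The second allele was near 0 in the low-XIX embryos by the way the SNVs were chosen. For the shared allele the choice required more than 10% of reads in each high-XIX embryo. Each site also needed more than 12 reads in every embryo. Beyond this the shared allele's amount was not part of the choice. Its mean was higher in the high-XIX set in 16 of the 20 runs, by more than 1.5 times in 12 of them. The shared allele's ratio of means (high-XIX over low-XIX) ranged from 0.374 to 3.59 with a median of 1.72. In 7 runs every high-XIX embryo was above every low-XIX embryo. How often such differences occur at other SNVs that varied among embryos was not counted, so these counts have no background beside them.

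**Figure D3:**
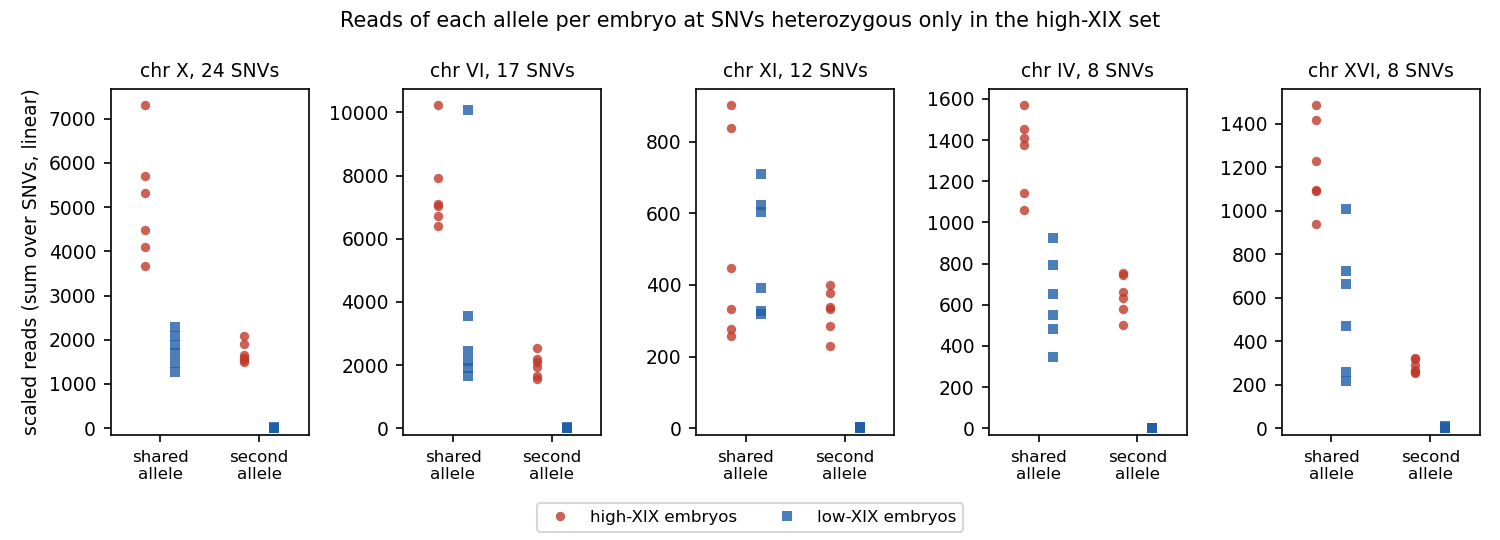
Scaled reads (y axis, linear, sum over the SNVs of a run) of the shared and the second allele in each embryo, for the 5 runs with the most SNVs that followed the sets, as circles for the 6 high-XIX and squares for the 6 low-XIX embryos. Second-allele reads are near 0 in every low-XIX embryo, and shared-allele reads on X and IV are higher in all high-XIX than in all low-XIX embryos.

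The run with the most SNVs was chrX:14785001-14788055, inside the window with the highest signal. It held 24 SNVs of the high-XIX kind and 1 of the other kind among 85 deep sites. Its second allele had between 1506 and 2093 scaled reads in the high-XIX embryos, median 1612, and at most 17.8 in the low-XIX embryos. Its shared allele had 3660 to 7308, median 4899, in the high-XIX and 1279 to 2282, median 1793, in the low-XIX embryos. So the high-XIX embryos had 2.85 times the shared-allele reads as well as the second allele, which made up 25.2% of their reads. At its deepest SNV, 14785194, the alternate base had 13.9% to 22.8% of reads in the high-XIX embryos, and 1 of 805 reads in the low-XIX embryos together.

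The run at chrVI:14160554-14161963 held 17 SNVs. Its second allele had 1573 to 2532 scaled reads in the high-XIX embryos, 20.9% of the total, and at most 27.9 in the low-XIX embryos. The shared allele had 6393 to 10231, median 7063, against 1638 to 10084, median 2278. The sets overlapped through 1 embryo, since low-XIX replicate 1 had 10084 and the next low-XIX embryo 3568. At 14160709, its deepest SNV, the alternate base had 12.2% to 21.2% of reads in the high-XIX embryos and 0 of 2291 reads in the low-XIX embryos. A count of 0 leaves room for a low share that was not sampled.

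On chromosome XI, 12 SNVs formed a pair of tight groups, at 1529208 to 1529410 and at 2416052 to 2416103. The second allele had 228 to 399 scaled reads in the high-XIX embryos, 39.1% of the total, and at most 4.0 in the low-XIX embryos. Its shared allele overlapped between the sets, with 258 to 902, median 390, against 319 to 710, median 497. At 1529208 the alternate base had 25.2% to 50.8% of reads in the high-XIX embryos, and 0 of 409 in the low-XIX embryos.

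The run at chrIV:4008263-4008456 held 8 SNVs within the called window described above. Shared-allele reads were 1058 to 1570, median 1392, in the high-XIX embryos and 345 to 922, median 602, in the low-XIX embryos, without overlap. The second allele made up 32.6% of high-XIX reads, with 27.3% to 44.2% at the deepest SNV, 4008426, where the low-XIX embryos had 0 of 650 reads. The run at chrXVI:4383190-4383449 also held 8 SNVs. Its shared allele had 939 to 1484 scaled reads against 219 to 1008, which overlap, and the second allele made up 19.1% of high-XIX reads. At 4383449 the alternate base had 15% to 23.2% of reads in the high-XIX embryos and 11 of 676 in the low-XIX embryos.

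These SNVs differed from ordinary heterozygous ones in several measures. The low-XIX embryos carried the reference base at 91 of the 114 and the alternate base at 23. The median share of the second allele over the 114 was 27.8% in the high-XIX embryos, compared with 42.9% at the SNVs of the same kind on XIX. The median alternate share was 25.3% at the 91, and 48.6% at the 19519 SNVs heterozygous in every embryo. Reads of low mapping quality made up 28.3% of raw reads at the 114 SNVs, 5.31% over all 103922 deep sites elsewhere and 1.27% at the XIX SNVs. The part of mapping in the pattern was not tested. The share varied between runs, and in the high-XIX embryos it was 4.33% at the run on X and 38.8% at the one on IV. Without sites above 10% of such reads, 54 SNVs of the first kind and 3 of the second were found.

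The windows and the SNVs pointed partly to the same places. The 114 SNVs lay in 24 windows of 10 kb, of which 13 (54.2%) were also among the called windows, against 0.174% of all windows tested. These 13 were 59.1% of the 22 called windows. The measures are not independent, because second-allele reads add to the totals of those windows.

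Allele ratios were compared at the 19519 SNVs outside XIX and Un that were heterozygous in every embryo, to ask whether the sets used their alleles in different proportions. At an adjusted p below 0.05, 2 SNVs (0.0102%) differed by edgeR's test of the allele by set term. At an unadjusted p below 0.05 there were 955 of the 19519, near the share that this threshold passes where no SNV differs. Over all SNVs the median absolute log2 difference was 0.15, against a median SE of 0.25. The number called moved with single embryos, being 7 without replicate 1, 5 without replicate 4, 12 without replicate 5, 13 without replicate 7 and 5 without replicate 9, and 2 or 3 without any of the others.

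Both called SNVs lay beside ones that followed the sets. At chrX:14785090, 46 bases from such a SNV and inside the run on X, the reference share was 30.8% to 46.6% in the high-XIX embryos, median 37.2%, and 63.3% to 79.8%, median 77.9%, in the low-XIX embryos. The reference-to-alternate ratio was thus lower in the high-XIX set (log2 difference -2.23, SE 0.21, adjusted p = 0.000199, edgeR). At chrIV:23235454, 41 bases from such a SNV and inside another called window, the reference share was 50.8% to 76.7%, median 70.1%, against 10.7% to 40.7%, median 31.7% (log2 difference 2.49, SE 0.35, adjusted p = 0.000513). Neither pair of ranges overlapped, and both calls held when any single embryo was left out.

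A further part of the signal lay at sites that the deposited files list for one set only. The rule by which a site was listed is not given in the sources used here. The files also list 110750 entries with 0 counted reads, of 5620881, so a missing entry is not the same as a listed 0, and below it is only taken as 0 reads. Outside XIX and Un, 1527 of 469239 sites (0.325%) were listed in every high-XIX and in no low-XIX embryo, and 11 (0.00234%) were the other way. With more than 12 reads in each embryo that lists the site, the counts were 168 and 0. On XIX the counts at any depth were 114 and 29 of 39565 sites, and on Un 370 and 4 of 31970. The share listed in the high-XIX set alone was thus largest on Un. Most of these sites were shallow, with a median of 5 reads per embryo, and the deepest had a mean of 461.

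The 1527 sites fell in 273 windows of 10 kb over 20 chromosomes, with 10 or more in 31 windows. The 5 windows with the most sites held 21.9% of them. These were chosen after their values had been seen. The high-XIX embryos carried both bases at many of the sites. Of the 168 deep sites, 86 were heterozygous in all 6 high-XIX embryos and 15 in none. Reads of low mapping quality made up 15.4% of raw reads over the 1527 sites.

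The window with the most was chrIV:20550001-20560000, with 83 such sites between 20551926 and 20555053. They had 1259 to 2595 reads per high-XIX embryo, median 2082, and 27.9% to 32.6% of these carried the alternate base. All 123 sites of the window together had 1728 to 3063 scaled reads in the high-XIX and 3.96 to 23.5 in the low-XIX embryos. Few reads of the low-XIX embryos lay there. On chromosome XVII, 82 sites lay in 11330001-11340000 and 69 in 11340001-11350000. The first of these had 1017 to 1860 scaled reads, median 1507, against 0 to 8.55, and the second had 3354 to 4985, median 3964, against 46.8 to 110. Reads of low mapping quality were 21.3% in the first and 7.0% in the second.

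At chrIV:31120001-31130000, 54 such sites were found, and the window had 613 to 862 scaled reads against 0 to 7.59. At chrXI:2410001-2420000, which also holds the second XI group of SNVs described above, there were 47. Low-XIX embryos did have reads at other sites of that window, with 368 to 1341 scaled reads against 3264 to 5458 in the high-XIX embryos. At 3 of these 5 windows no low-XIX embryo had more than 23.5 scaled reads. At 11340001-11350000 on XVII and 2410001-2420000 on XI they had more, though fewer than any high-XIX embryo. The windows were ranked by their number of sites listed in the high-XIX set alone, and missing entries were taken as 0 reads. This separation is therefore largely set by the choice and is given as description.

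The comparison of windows above needed reads in every embryo, and 4 of its 22 called windows (18.2%) were among the 273, which is 1.47% of the latter. As background, 0.174% of all windows tested were called. Some of the 273 had no site to test in that comparison, so these shares have unlike bases. How many of the 12622 tested windows were among the 273 was not counted. An alternative chosen after seeing the data used every listed site and took unlisted ones as 0 reads. By edgeR, 307 of 26584 windows (1.15%) then passed as higher in the high-XIX embryos and 23 (0.0865%) as lower. These counts are a description, since a window whose sites are listed in one set alone had to differ. With sites listed in all 12 embryos and no depth minimum, where this does not apply, 59 of 20594 windows were higher and 7 lower. Of the 22 windows called above, 21 were among the 330. The 307 windows lay on all 20 chromosomes, from 8 each on IX, XII and XV to 55 of 1964 on IV. No read was listed for any low-XIX embryo in 73 of the 307 windows and at most 3 for each in 120, while some high-XIX embryo had listed reads in each of the 23 lower windows. Such windows among all 26584 were not counted, and taking missing entries as 0 favors them among those called.

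**Figure D4:**
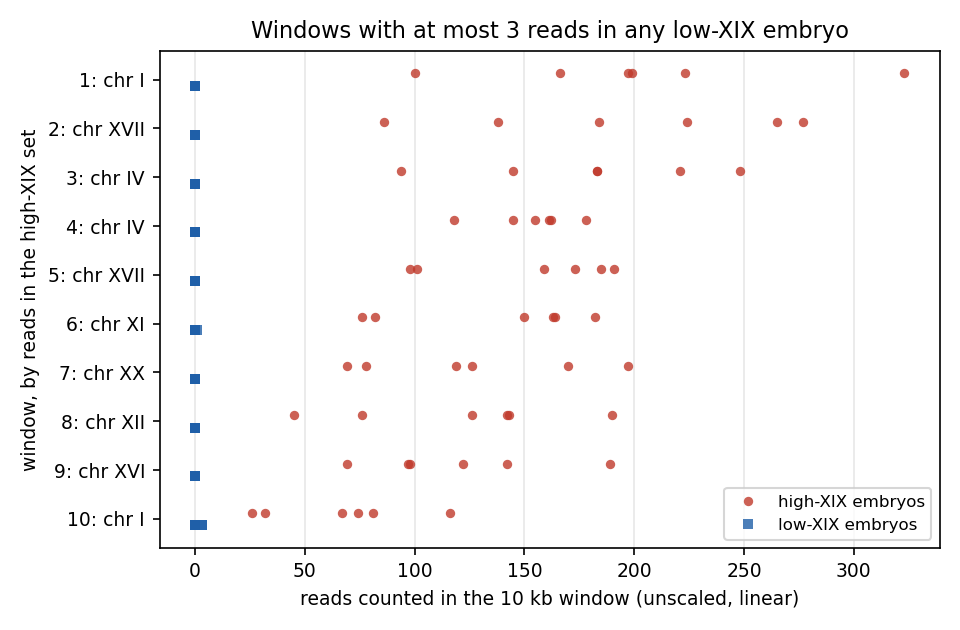
Unscaled reads (x axis, linear) per embryo in the 10 windows outside XIX and Un with the most high-XIX reads among the called ones in which no low-XIX embryo had more than 3 reads, with 1 row per window named by rank and chromosome, circles for the 6 high-XIX and squares for the 6 low-XIX embryos. Sites missing from an embryo's file are drawn as 0 reads. All squares lie at 0 to 3 reads, and all circles at 26 to 323.

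Among windows with at most 3 reads in any low-XIX embryo, the most reads were at chrI:19790001-19800000. Its 48 sites had 100 to 323 reads per high-XIX embryo, with a median of 198, and no read listed for any low-XIX embryo. Even where a missing entry is a count of 0, RNA at a low level could have been missed by sampling. The next were chrXVII:12190001-12200000, with 86 to 277 reads, chrIV:23810001-23820000, with 94 to 248, chrIV:20540001-20550000, with 118 to 178, and chrXVII:12070001-12080000, with 98 to 191, all with no read listed for any low-XIX embryo. Some of these adjoin or lie near the windows on IV and XVII given above.

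The windows lower in the high-XIX embryos were fewer. The largest difference was at chrII:8230001-8240000, with 2 sites, at which the high-XIX embryos had 0 or 1 read each and the low-XIX embryos 4 to 18. At chrXII:6240001-6250000, also with 2 sites, they had 0 to 8 against 28 to 55 reads. At chrII:150001-160000, with 36 sites, they had 33 to 124 against 149 to 410 reads. In these 3 windows every high-XIX embryo had fewer reads than every low-XIX embryo. They were picked for large differences among called windows, with missing entries taken as 0 and reads unscaled. This separation is therefore largely set by the choice and is given as description. Such windows among all those tested were not counted.

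The HOXDB genes on chromosome VI were the subject of the cross. They encode transcription factors that pattern the body axis from head to tail, HOXD4B being expressed more anteriorly and HOXD11B more posteriorly. Each was measured at the SNV scored for it, which on gasAcu1-4 lies in chrVI:17750001-17760000 for HOXD11B, chrVI:17760001-17770000 for HOXD9B and chrVI:17780001-17790000 for HOXD4B. All 12 embryos were heterozygous at each SNV. The comparison asks whether the allele ratio of these genes differed between the sets, which share the same parents.

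No difference between the sets was detected at any of the scored HOXDB SNVs. At the HOXD11B SNV, read by 12 to 30 reads per embryo, the log2 reference-to-alternate ratio was -0.22 ± 0.54 (SD, n = 6) in the high-XIX and -0.14 ± 1.01 in the low-XIX embryos (two-sided exact permutation test, p = 0.89). Single embryos ranged from -1.0 to 0.42 and from -2.0 to 1.10, so the ranges overlapped.

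At the HOXD9B SNV, with 7 to 20 reads, the ratio was -0.02 ± 0.65 in the high-XIX and 0.51 ± 0.63 (SD, n = 6) in the low-XIX embryos (exact permutation test, p = 0.197). The difference of -0.53 became -0.32 without replicate 8, -0.34 without replicate 7 and -0.71 without replicate 6. The ranges were -1.0 to 0.85 and -0.15 to 1.58. The HOXD4B SNV was the deepest, with 43 to 110 reads. Its ratio was -0.47 ± 0.52 in the high-XIX and -0.33 ± 0.22 (SD, n = 6) in the low-XIX embryos (exact permutation test, p = 0.545), with ranges of -1.21 to 0.16 and -0.60 to 0.04. After Benjamini-Hochberg adjustment over the 3 SNVs the smallest p was 0.591. The smallest difference that could be detected at these depths and this spread between embryos was not computed.

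**Figure D5:**
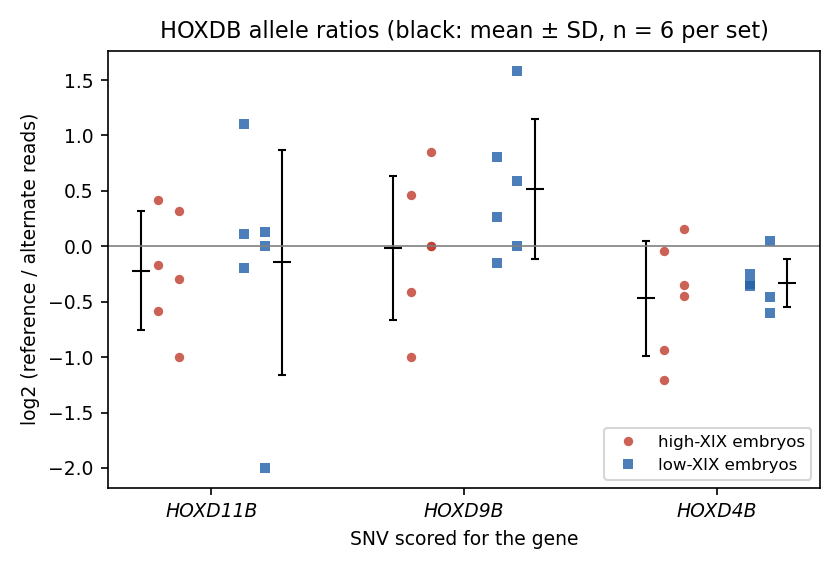
Log2 of reference over alternate reads (y axis) at the SNV of HOXD11B, HOXD9B and HOXD4B in each embryo, as circles for the 6 high-XIX and squares for the 6 low-XIX embryos, with the mean and SD of each set in black. The sets overlap at every gene, and the values lie between -2.0 and 1.58.

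Other SNVs within 4 kb that were heterozygous in all embryos had median absolute differences in log2 ratio of 0.42 over 8 SNVs for HOXD11B, 0.24 over 5 for HOXD9B and 0.14 over 7 for HOXD4B, the scored SNV included. Their lowest unadjusted exact permutation p was 0.0152, 0.197 and 0.0303 over those 8, 5 and 7 SNVs. Their largest absolute difference, in the same order, was 1.02, 0.53 and 0.69. No difference was detected in total reads of the HOXDB windows. The window of HOXD11B, resting on 3 sites, had 2.58 to 6.39 CPM in the high-XIX and 2.80 to 5.63 in the low-XIX embryos, a log2 difference of 0.09 (SE 0.22, adjusted p = 0.916, edgeR). That of HOXD4B had 52.6 to 62.9 against 51.6 to 72.1 CPM, a log2 difference of -0.01 (SE 0.09, adjusted p = 0.986). The sign at HOXD4B turned to 0.01 when library totals were used without TMM scaling. The window of HOXD9B had no site with more than 12 reads in every embryo, and with no depth minimum its difference was 0.08 (adjusted p = 0.886).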

How the data were processed

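RNA of 12 whole embryos was sequenced with 200 ng of input per library and 12 PCR cycles. The authors trimmed reads with cutadapt 2.4, mapped them with STAR in two-pass mode to gasAcu1-4 and counted alleles with GATK 4.1.4.1. The deposited values are counts of reference, alternate and total reads per site, not normalized, with low mapping quality reads listed apart. Reads carry no molecular identifiers, and a read spanning several sites was counted at each, so p-values rest on embryos and not on reads.

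The members, lists and tests were chosen with earlier results of these data known. Sites were joined over embryos by contig, position and alleles. Window totals were tested with edgeR 4.0.16 (quasi-likelihood, TMM, Benjamini-Hochberg, threshold 0.05) and allele ratios with the embryo as a block, its 2 columns being from the same embryo. Single values were tested by exact permutation over embryos. Named were the 10 windows with the largest change among those called, called SNVs at least 100 kb apart, the 5 runs with most SNVs with their deepest SNV, the 5 deepest SNVs of each kind on XIX and the HOXDB SNVs. On simulated counts with 200 features changed by a log2 of 1, the window test recovered 198 with 13 false calls among 12622 windows, and the allele test 141 with 6 among 19519 SNVs. Features were simulated independently, with the fitted trend of spread for windows and a single median spread for SNVs. Spread particular to a feature, outlying embryos and reads shared between sites were not simulated. The recovery therefore does not carry over directly to the real counts. Alternatives covered the read and heterozygosity limits, scaling, DESeq2 1.42.0, window size, covariates and leaving out each embryo. R 4.3.3 and Python 3.11.15 were used. No embryo was left out.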

Additional observations from a re-analysis of the deposited data

Results flagged for a closer look

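In groups of 6 embryos a value was set apart when its gap to the nearest other embryo exceeded Dixon's limit as a share of the group's range, which chance does in about 1 in 20 groups. Of 66 groups examined, 5 were set apart. Among the high-XIX embryos, replicate 7 had 440710 listed sites, below the next at 472899, and it was also the embryo with the fewest reads. Replicate 4 had 7.84 CPM at chrIV:4010001-4020000, above the next high-XIX embryo at 5.05. The other 3 were all low-XIX replicate 1. It had 113 CPM at chrVII:21680001-21690000, where the next low-XIX embryo had 57.9. At chrIX:10180001-10190000 it had 141 CPM and the next embryo 59.0. In the run at chrVI:14160554-14161963 it had 10084 scaled reads of the shared allele and the next embryo 3568. No cause was tested.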

How the results depend on the processing

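The gap between the sets on XIX stayed within 1.5 times its size in all alternatives run. Called windows outside XIX and Un numbered 22, but 68 with DESeq2, 66 with no depth minimum, 10 with more than 30 reads, 13 from the deepest site, 8 without sites rich in low mapping quality reads and 330 with unlisted sites as 0 reads. SNVs that followed the sets numbered 119, but 181 at a heterozygosity limit of 0.05, 63 at 0.20, 48 with more than 30 reads, 186 when 1 embryo could go against the sets, 57 without sites rich in low mapping quality reads and 27 when counted as 10 kb windows. Sites listed in one set only fell to 168 with more than 12 reads. Called allele ratios numbered 2, but 1 each with a share above 0.20, more than 30 reads or the deepest SNV, and 3 with no replicate block. No pairing of embryos between the sets exists in the labels. Leaving out each embryo gave 2 to 13 called allele ratios, 16 to 28 windows and a difference of 856 to 2048 heterozygous sites. It moved the HOXDB ratio differences between -0.45 and 0.17 for HOXD11B, between -0.71 and -0.32 for HOXD9B (lowest exact permutation p = 0.0801, without replicate 6) and between -0.27 and 0.0058 for HOXD4B, and the window differences between -0.045 and 0.20 and between -0.050 and 0.049, none past the threshold. HOXD4B's window was 0.011 without TMM, and HOXD9B's could be tested only with no depth minimum (0.08). The causes of these changes were not tested, other than fewer or more sites tested where a limit was changed. Depth limits the HOXD11B and HOXD9B ratios most, with at most 30 reads per embryo.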
